A study of Mus musculus with 17 samples.

Results

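The vascular endothelial growth factors (VEGFs) and the angiopoietins are secreted ligands that control how blood and lymph vessels sprout, survive and leak. VEGFs bind tyrosine kinase receptors on endothelial cells: VEGFA acts mainly through KDR (VEGFR2), is held by the decoy-like FLT1 (VEGFR1) and is presented by the co-receptor NRP1, while VEGFC acts on FLT4 (VEGFR3) of lymphatic vessels. ANGPT1 activates the receptor TEK (Tie2) and keeps vessels quiet, and ANGPT2 often opposes it. In white fat, adipocytes are a known source of VEGFA, and new vessels accompany growth of the tissue.

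10 genes of this system were examined: the ligands Vegfa, Vegfb, Vegfc, Angpt1 and Angpt2 and the receptors Kdr, Flt1, Flt4, Nrp1 and Tek. They were chosen by name or by a known alias, with no measured value in the rule. Earlier results of these data were known when they and the gene lists below were chosen. The 10 genes have 22 of the 41174 gene probes on the array. The probes whose file name is Ang1 or Ang2 were left out because their accessions belong to angiogenins, a different family. 9 of the 10 genes had a probe bright enough to be tested, among 18133 genes tested in all, and Angpt1 had none.

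The mice were adult C57BL/6J males, and the tissue was their epididymal white adipose tissue, a visceral fat pad next to the testis, taken after 13 weeks of feeding. One group ate a high-fat diet whose carbohydrate had a high glycemic index (HGI, 9 mice), and the other a high-fat diet of low glycemic index (LGI, 8 mice). Both diets drew 30% of their energy from fat, and glycemic index ranks carbohydrates by the rise in blood glucose that follows a meal. Cy5-labelled RNA from every mouse competed on an Agilent array with 1 Cy3-labelled pool, which the labels describe as made from all samples, so each value below is a log2 ratio of that mouse to the pool and each difference is HGI minus LGI. The labels only number the samples within a diet, so a p-value reflects the spread among these samples and nothing wider, and precision is limited by how many arrays there are.

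2 HGI mice, HGI 9 and HGI 10, stood apart from the rest. The correlation between these 2 arrays was 0.787. Against the remaining 15 it ran from -0.04 to 0.15, and among those 15 from 0.335 to 0.806. The mean of 4 seminal vesicle genes with no saturated spot was 2.35 in HGI 9 and 2.11 in HGI 10, and between -4.15 and -3.71 in the other 15 arrays. Of the 4 other measured genes of that list, Svs4, Svs5 and Svs6 were saturated in 1 dye or the other on all 17 arrays and Pate4 on 1. The mean of 5 epididymis genes lay between -4.33 and -3.65 on all 17 arrays, so the pool held more of these transcripts than any mouse analysed here, and whether RNA of other samples entered the pool was not tested. The mean of 19 blood endothelium markers was -0.31 and -0.20 in the same 2 arrays, below the -0.04 to 0.25 of the others. The 12 adipocyte markers, Adipoq and Plin1 among them, were well above background on every array, and so were the 19 endothelium markers. The arrays also fell into 2 scan groups by the brightness of their negative controls in Cy5: the first 8 scanned, 4 of each diet, read 98.4 to 118, and the later 9, 5 HGI and 4 LGI, read 72.5 to 86.0. The difference of each member is therefore also given without HGI 9 and HGI 10 and within each scan group. HGI 9 was in the first scan group and HGI 10 in the later one. Values by scan group include them unless stated otherwise.

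No gene passed an adjusted p of 0.05 in limma, 0% of the 18133 genes tested, and so 0 of the 9 members did. At an unadjusted p under 0.05, which 7.74% of all genes reached, 4 of the 9 members stood, all of them lower in HGI: the receptors Kdr and Flt4 and the ligands Vegfa and Vegfb. Vegfc, Angpt2, Flt1, Nrp1 and Tek did not reach it. Without HGI 9 and HGI 10, again 0% of genes passed the adjusted threshold, and 1 of the 9 members, Kdr, was under an unadjusted 0.05, where 7.79% of genes were. For ligands and receptors alike, fewer cells that make a transcript and less of it per cell cannot be told apart in RNA of whole tissue.

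**Figure D1:**
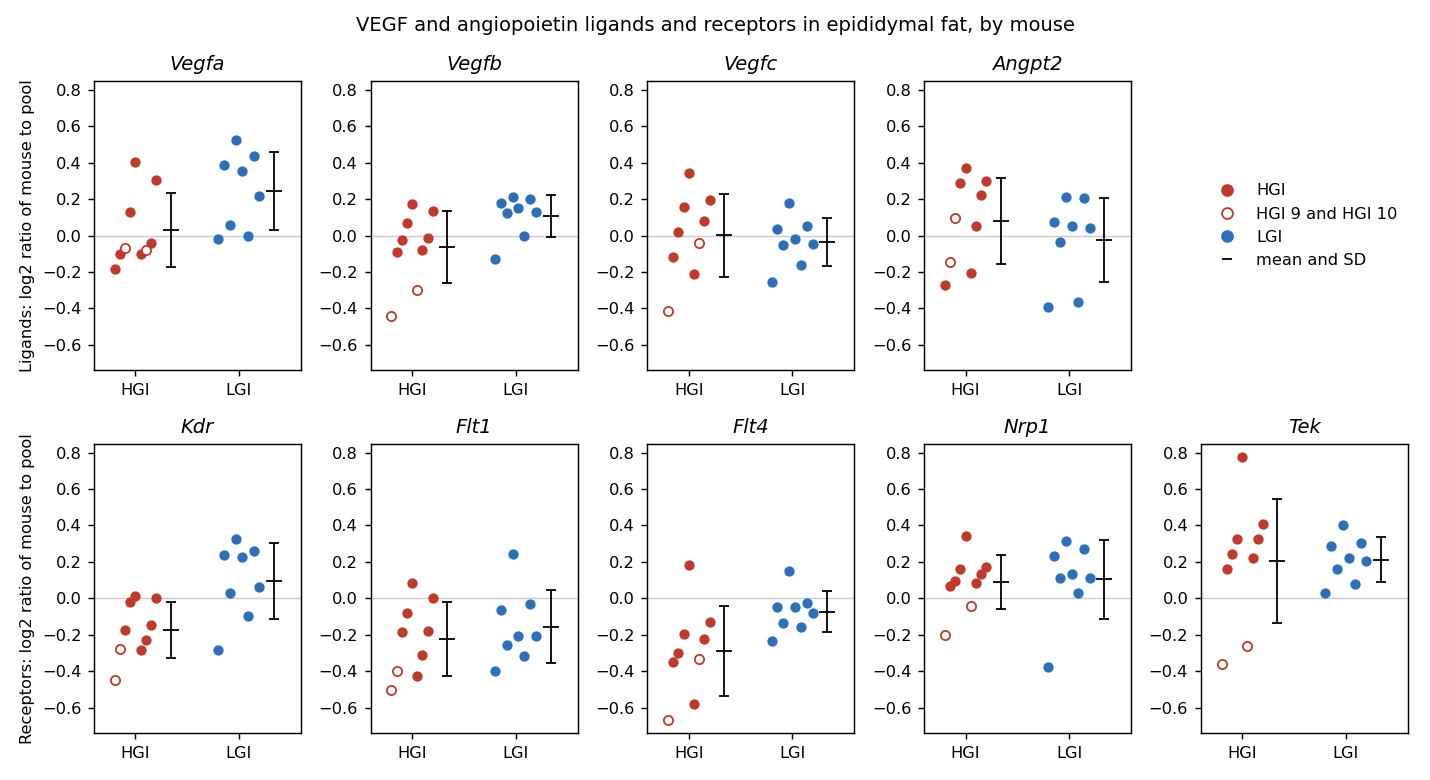
Log2 ratio of each mouse to the pool (vertical axes) for the 4 measured ligands (top) and 5 receptors (bottom), HGI left and LGI right in each panel. Points are mice, open points are HGI 9 and HGI 10, and bars are mean and SD. For Kdr each of the 9 HGI points is under the LGI median of 0.14, and for Tek HGI 9 and HGI 10 lie far below the other 7 HGI mice.

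The starts of 4 of these genes are shown for reference: Vegfa, the ligand, Kdr and Flt4, the receptors with the lowest p, and Tek, the receptor with the smallest difference. The sequences are RefSeq's for build GRCm38.p6 and run 5′ to 3′ from 250 bases before to 50 bases after the annotated start, and a promoter was listed for 8 of the 10 genes. Capitals mark 3 motifs searched on both strands: the GC box GGGCGG, the hypoxia response core ACGTG and the ETS core GGAAG, of which no match overlapped a match of another kind.
Vegfa, chr17:46032328-46032627, minus strand: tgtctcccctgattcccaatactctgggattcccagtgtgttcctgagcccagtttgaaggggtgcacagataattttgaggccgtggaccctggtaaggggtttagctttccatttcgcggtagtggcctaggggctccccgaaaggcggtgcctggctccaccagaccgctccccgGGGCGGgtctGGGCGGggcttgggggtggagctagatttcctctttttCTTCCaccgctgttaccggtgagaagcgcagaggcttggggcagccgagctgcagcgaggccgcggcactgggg
Kdr, chr5:75978406-75978705, minus strand: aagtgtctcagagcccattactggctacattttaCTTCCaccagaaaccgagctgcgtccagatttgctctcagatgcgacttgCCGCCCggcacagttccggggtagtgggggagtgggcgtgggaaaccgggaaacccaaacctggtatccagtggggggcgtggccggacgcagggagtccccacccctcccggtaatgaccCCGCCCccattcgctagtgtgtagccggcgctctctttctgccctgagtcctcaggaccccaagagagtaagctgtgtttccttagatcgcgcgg
Flt4, chr11:49609429-49609728, plus strand: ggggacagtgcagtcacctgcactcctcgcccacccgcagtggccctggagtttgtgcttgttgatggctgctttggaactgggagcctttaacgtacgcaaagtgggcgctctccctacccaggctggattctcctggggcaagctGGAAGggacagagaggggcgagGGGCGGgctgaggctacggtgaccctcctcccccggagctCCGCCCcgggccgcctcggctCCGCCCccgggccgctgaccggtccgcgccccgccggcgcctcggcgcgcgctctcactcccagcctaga
Tek, chr4:94739039-94739338, plus strand: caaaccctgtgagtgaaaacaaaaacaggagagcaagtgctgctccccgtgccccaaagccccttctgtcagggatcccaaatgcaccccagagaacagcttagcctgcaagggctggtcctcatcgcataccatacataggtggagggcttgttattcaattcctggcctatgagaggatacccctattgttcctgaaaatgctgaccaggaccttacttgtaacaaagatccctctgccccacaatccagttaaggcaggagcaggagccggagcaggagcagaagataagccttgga
The GC box had 2 matches in Vegfa, 2 in Kdr and 3 in Flt4, the ETS core had 1 match in each of these 3, and Tek had no match to any of the 3 motifs. Of all 32851 promoters of the same length, 35.7% held the GC box, 19.6% the hypoxia response core and 71.4% the ETS core. The hypoxia response core was in none of the 4 windows shown. A second Vegfa start listed by RefSeq, not printed here, has in its window 1 match to the hypoxia response core, 1 to the GC box and 2 to the ETS core. A match or its absence describes these letters only.

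Vegfa, the main angiogenic ligand, ran from -0.18 in HGI 5 through a median of -0.07 to 0.41 in HGI 6 among the HGI mice, and from -0.02 in LGI 9 through 0.29 to 0.53 in LGI 6 among the LGI mice. The groups overlapped, with 7 of 9 HGI mice below the LGI median and HGI 6 and HGI 7 above it. HGI mice averaged 0.03 ± 0.20 (SD, n = 9) and LGI mice 0.24 ± 0.21 (SD, n = 8). This difference of -0.22 ± 0.10 (SE) had an unadjusted p of 0.0358 and an adjusted p of 0.616 in limma. It was -0.31 in the first scan group and -0.14 in the later one, and -0.19 without HGI 9 and HGI 10. The gene has 2 further tested probes, which differed by -0.05 ± 0.13 and -0.12 ± 0.10. Over the 15 arrays without HGI 9 and HGI 10 they correlated at 0.71 and 0.66 with the probe reported. All 3 probes lay lower in HGI, and the size of the difference depended on the probe.

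Vegfb, a ligand of FLT1 tied to endothelial fatty acid uptake, lay at -0.44 in HGI 10 at the lowest, at a median of -0.02 and at 0.18 in HGI 1 among the HGI mice, against -0.13 in LGI 9, 0.14 and 0.21 in LGI 4 among the LGI mice. All but 1 of the 9 HGI mice were below the LGI median, and HGI 9 (-0.30) and HGI 10 were the 2 lowest of all 17 mice. The difference was -0.17 ± 0.08 (SE), with an unadjusted p of 0.0454 and an adjusted p of 0.643 in limma. Without those 2 arrays it was -0.08 ± 0.07 (unadjusted p = 0.220), and in the first and later scan groups it was -0.14 and -0.20. The second probe of the gene differed by -0.05 ± 0.07. With the mean of the adipocyte markers as a covariate, chosen after the data were seen, the Vegfb difference was -0.08, while that of Vegfa was -0.19. Cfd and Fabp4, 2 of these 12 markers, were saturated on all 17 arrays, and with the mean of the remaining 10 as the covariate the differences were -0.11 for Vegfb and -0.21 for Vegfa. Of these 10 markers 8 lay lower in HGI, none past the threshold.

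Vegfc, the ligand of lymphatic growth, spread from -0.41 in HGI 10 through 0.02 to 0.34 in HGI 4 in the HGI mice and from -0.26 in LGI 4 through -0.03 to 0.18 in LGI 9 in the LGI mice. The LGI values all lay inside the HGI range, and the difference of 0.03 ± 0.09 (SE) was smaller than its error. It was 0.10 without HGI 9 and HGI 10 (unadjusted p = 0.235), 0.12 in the first scan group and -0.03 in the later one, and -0.01 without HGI 4. Angpt2, the destabilising angiopoietin, spread from -0.27 in HGI 1 through 0.10 to 0.37 in HGI 3 in the HGI mice and from -0.39 in LGI 2 through 0.05 to 0.21 in LGI 7 in the LGI mice. The groups overlapped widely, although 6 of 9 HGI mice were above the LGI median. The difference was 0.10 ± 0.11 (SE; 95% interval -0.12 to 0.33). It was 0.09 in the first scan group and 0.12 in the later one, 0.13 without HGI 9 and HGI 10, 0.06 without LGI 1 and 0.05 without LGI 2.

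Angpt1, the stabilising ligand of TEK, was too dim to be tested: 1 of its 2 probes was well above background on 1 HGI and 0 LGI arrays and the other on 1 HGI and 4 LGI arrays. Without a filter on dim probes it joins the other ligands, and their median then turns to 0.03. The first probe averaged 0.12 in HGI and 0.08 in LGI mice, and the second -0.18 and -0.06, so they pointed in opposite directions. These values lie near background, and in the main fit no difference of Angpt1 was tested.

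Kdr, the main signalling receptor of VEGFA on blood vessels, had the smallest p among the members. HGI mice ran from -0.45 in HGI 9 through -0.17 to 0.01 in HGI 7, and LGI mice from -0.29 in LGI 7 through 0.14 to 0.33 in LGI 2. The LGI median exceeded every one of the 9 HGI values, and the groups overlapped only because LGI 7 and LGI 6 (-0.10) lay within the HGI range. HGI mice averaged -0.17 ± 0.15 (SD, n = 9) and LGI mice 0.10 ± 0.21 (SD, n = 8). The difference was -0.27 ± 0.09 (SE; 95% interval -0.45 to -0.09), or 0.830-fold. limma gave an unadjusted p of 0.00529, rank 176 of the 18133 genes, and an adjusted p of 0.520.

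The Kdr difference kept its direction under each of 41 other settings and stayed between -0.32 and -0.19. It was -0.29 in the first scan group and -0.26 in the later one, and -0.21 ± 0.09 without HGI 9 and HGI 10, where all 7 remaining HGI mice were below the LGI median. LGI 7 was the 1 LGI mouse in the range of the lowest HGI mice, and without it the difference was -0.32 with an unadjusted p of 0.000585 and an adjusted p of 0.200. The Kdr difference rests on 1 probe, since the other Kdr probe was well above background on 0 arrays. The unadjusted p of Kdr in limma was 0.0567 with median centring and 0.0758 in the first scan group alone.

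Flt1, the high-affinity VEGFA receptor that acts largely as a decoy, spread from -0.50 in HGI 10 through -0.19 to 0.08 in HGI 6 in the HGI mice and from -0.40 in LGI 5 through -0.21 to 0.24 in LGI 2 in the LGI mice. The groups overlapped throughout, and the difference was -0.07 ± 0.09 (SE; 95% interval -0.26 to 0.13). Its 3 other tested probes differed by 0.08, -0.07 and 0.05, so the direction depended on the probe. The difference of the probe reported was -0.00 without HGI 9 and HGI 10, -0.01 without LGI 2, -0.18 in the first scan group and 0.03 in the later one.

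Flt4, the VEGFC receptor of lymphatic vessels, spread from -0.67 in HGI 9 through -0.30 to 0.18 in HGI 4 in the HGI mice and from -0.24 in LGI 1 through -0.06 to 0.15 in LGI 2 in the LGI mice. 8 of 9 HGI mice were below the LGI median, with HGI 6 at -0.58 also low. The difference was -0.22 ± 0.09 (SE), with an unadjusted p of 0.0290 and an adjusted p of 0.602 in limma, and it was -0.16 without HGI 9 and HGI 10 (unadjusted p = 0.0926), -0.26 in the first scan group and -0.18 in the later one. Flt4 was dim, well above background on 6 HGI and 6 LGI arrays. The 5 measured markers of lymphatic endothelium did not share its direction, with 3 higher and 2 lower and a median of 0.03. Lyve1 differed by -0.20 ± 0.13, Prox1 by 0.10 ± 0.11 and Pdpn by -0.04 ± 0.07. Prox1 was dim too, well above background on 3 HGI and 5 LGI arrays. The Lyve1 difference was -0.09 and that of Pdpn -0.07 without HGI 9 and HGI 10.

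Nrp1, the VEGF and semaphorin co-receptor, spread from -0.20 in HGI 9 through 0.09 to 0.34 in HGI 5 in the HGI mice and from -0.38 in LGI 4 through 0.12 to 0.31 in LGI 6 in the LGI mice. LGI 4 lay far below the other LGI mice. The difference was -0.01 ± 0.09 (SE), and the 2 other tested probes, at -0.00 and -0.09, correlated at -0.25 and -0.26 with the one reported over 15 arrays. The Nrp1 difference was -0.12 in the first scan group and 0.09 in the later one, 0.05 without HGI 9 and HGI 10 and -0.08 without LGI 4. The probes of Nrp1 thus did not vary together from mouse to mouse.

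Tek, the angiopoietin receptor, spread from -0.36 in HGI 10 through 0.24 to 0.78 in HGI 6 in the HGI mice and from 0.03 in LGI 8 through 0.21 to 0.40 in LGI 7 in the LGI mice. HGI 9 (-0.26) and HGI 10 were the only 2 mice of the 17 below 0, and HGI 6 was the highest. The difference was -0.01 ± 0.12 (SE) with all mice and 0.14 ± 0.08 without those 2 arrays (unadjusted p = 0.110). It was -0.15 in the first scan group, with HGI 9 kept, and 0.12 in the later one, with HGI 10 kept. In the later group without HGI 10 it was 0.28. The other HGI mice of the first group read 0.16 to 0.33, and its LGI mice 0.08 to 0.40. The second Tek probe differed by 0.00 ± 0.07 and correlated at 0.14 with the first.

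**Figure D2:**
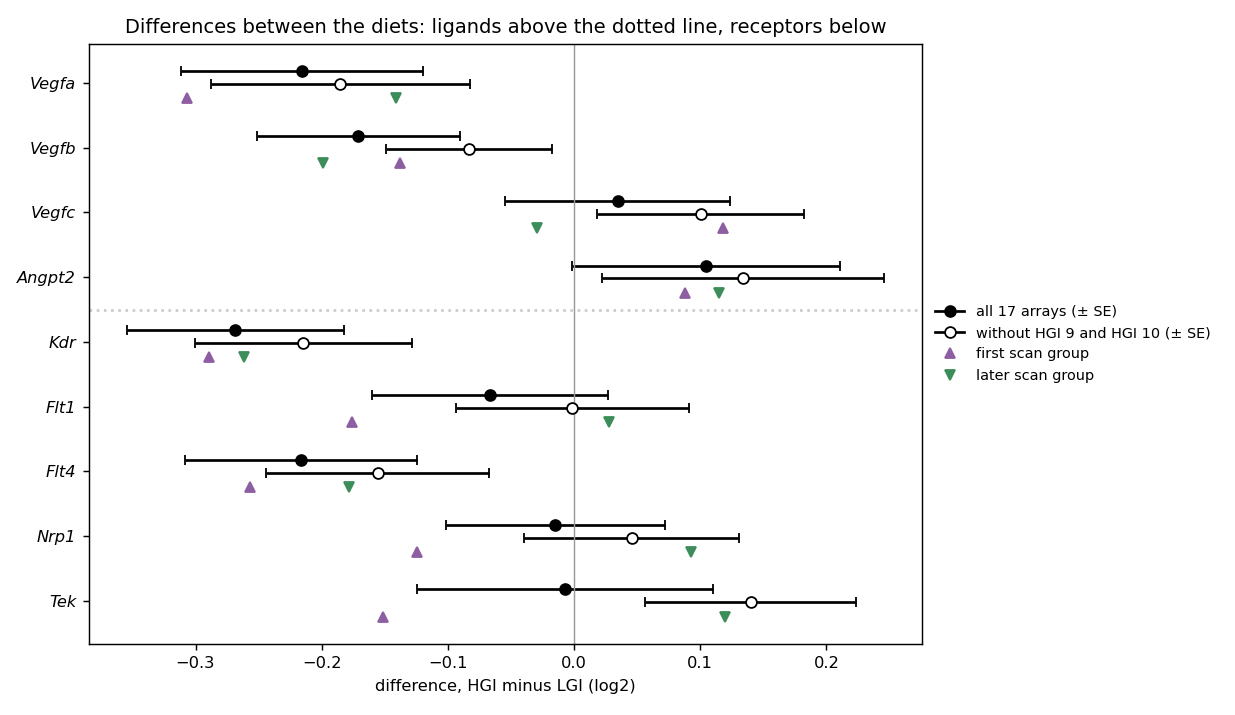
Difference in log2 ratio, HGI minus LGI (horizontal axis), for each measured ligand and receptor. Filled circles use all 17 arrays and open circles leave out HGI 9 and HGI 10, both with SE, and triangles give each scan group alone. Kdr lies between -0.29 and -0.21 in all 4, while Tek is at -0.15 in the first scan group and at 0.12 in the later one. The triangles keep HGI 9, in the first scan group, and HGI 10, in the later one.

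Among the 4 measured ligands 2 were higher and 2 lower in HGI, with a median difference of -0.07, and among the 5 receptors 0 were higher and 5 lower, also with a median of -0.07, where the median over all genes was 0.01 and 52.6% of them were higher in HGI. Without HGI 9 and HGI 10, 2 ligands were higher and 2 lower, with a median of 0.01, and 2 receptors were higher and 3 lower, with a median of -0.00. In the first scan group the ligand median was -0.03 and the receptor median -0.18, and in the later group they were -0.09 and 0.03, and the difference between ligands and receptors was not tested. The 5 of 5 receptors below 0 was thus not kept without those 2 arrays or in the later scan group, nor when LGI 2, LGI 5, LGI 6, LGI 7, HGI 9 or HGI 10 alone was left out.

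**Figure D3:**
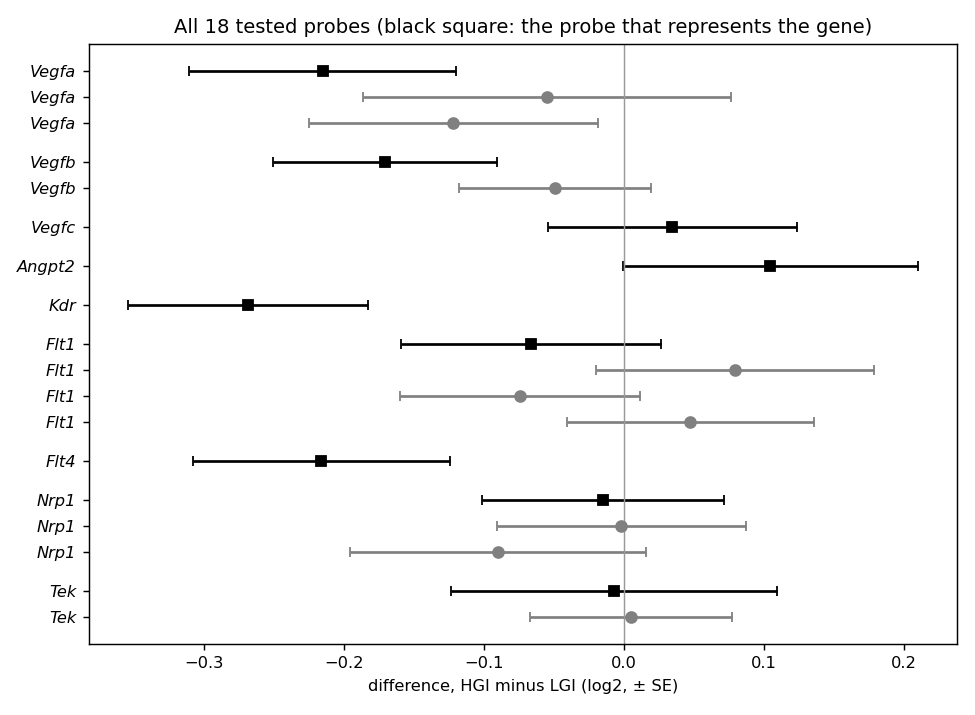
Difference in log2 ratio, HGI minus LGI, with SE (horizontal axis), for all 18 tested probes of the 9 measured genes. Black squares are the probes that represent a gene and grey circles the others. Both further Vegfa probes and the further Vegfb probe lie nearer to 0 than the probe reported, and Kdr and Flt4 each have 1 tested probe.

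The receptors are made mainly by endothelial cells, so their values were set beside the 19 blood endothelium markers. None of the markers passed, 13 were higher and 6 lower in HGI, and their median difference was 0.02. Pecam1, an endothelial adhesion molecule, differed by -0.07 ± 0.09 (SE) and Cdh5, the endothelial cadherin, by 0.01 ± 0.10. Emcn, Sox17 and Erg, the markers with the smallest p, differed by -0.13, 0.11 and -0.14. These 5 differences, with HGI 9 and HGI 10 left out, were 0.03 for Pecam1, 0.12 for Cdh5, -0.04 for Emcn, 0.18 for Sox17 and -0.06 for Erg. Without HGI 9 and HGI 10, 17 of the 19 were higher in HGI, with a median of 0.12, while Kdr was lower in the same mice. With both arrays kept, counts differed by scan group: 5 higher and 14 lower in the first, 14 higher and 5 lower in the later. In the first group the marker mean was -0.31 in HGI 9 and 0.05 to 0.20 in the other HGI arrays. Among its LGI arrays it ran from -0.03 to 0.13.

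Of the 9 members, Tek was the one whose log ratios correlated with the mean of these markers past the threshold, over the 15 arrays without HGI 9 and HGI 10, and it did so by Pearson's r only. Each member was read from the probe reported. The second Tek probe, which correlated at 0.14 with the first, was not set against these markers. In HGI 6 the 2 Tek probes read 0.78 and -0.02. For Tek, Pearson's r was 0.737 (permutation p = 0.00067, two-sided, adjusted p = 0.0121) and Spearman's rho 0.696 (permutation p = 0.00552, adjusted p = 0.0994), over 18 relations of 9 members with endothelium and adipocyte markers. Its r was 0.634 without HGI 6 and LGI 1, the 2 mice farthest from the median, 0.465 in the 7 arrays of the first scan group and 0.830 in the 8 of the later one. For Kdr, r was -0.350 (permutation p = 0.198, adjusted p = 0.596) and rho -0.329, with r at -0.231 and -0.533 in the 2 scan groups and -0.291 without the same 2 mice. Both diets were pooled in each of these correlations and the resampling ignored diet. No correlation within a diet was computed, so a difference between the diets can enter these values. Whether the correlations of Tek and Kdr differ was not tested. Of the other 16 relations the one with the lowest p was Angpt2 with the endothelium markers, at r = 0.514 (permutation p = 0.0504, adjusted p = 0.454) and rho = 0.618 (permutation p = 0.0158, adjusted p = 0.142). With the endothelium mean as a covariate over the 15 arrays, the Tek difference was -0.00 and that of Kdr -0.20 (unadjusted p = 0.0715), settings chosen after the data were seen.

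**Figure D4:**
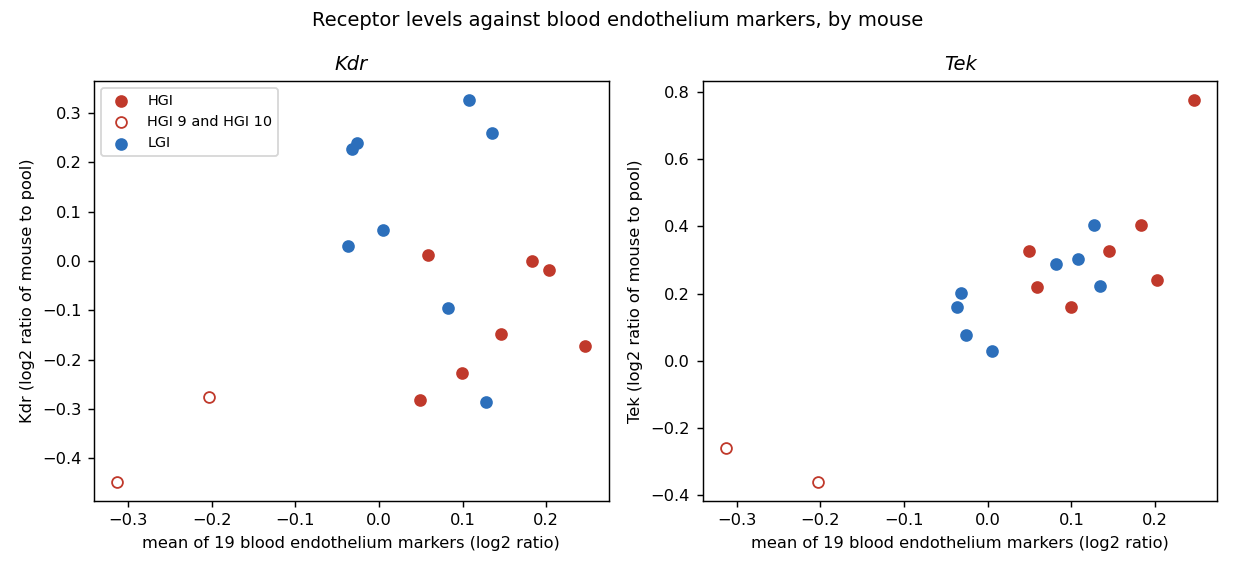
Log2 ratio of Kdr (left) and Tek (right) against the mean log2 ratio of 19 blood endothelium markers, by mouse. Red points are HGI, open points HGI 9 and HGI 10, and blue points LGI. The probe reported for Tek lies higher where the markers are higher, with r = 0.737 over the 15 filled points of both diets, and Kdr shows r = -0.350.

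Among the members, the log ratios of Kdr and Flt4 were the most alike over the 15 arrays (r = 0.545) and those of Vegfa and Vegfc the most opposed (r = -0.648). Vegfa and Flt1 stood at 0.485, Vegfa and Vegfb at 0.473, and Vegfa and Kdr, a ligand and its receptor, at 0.173. These correlations are descriptions over the same 15 arrays, which share the pool. Over all 14340 named genes, those most like Vegfa were Txnip (r = 0.909), Ccdc174 (0.893), Acacb (0.881), C2 (0.873) and Slc43a1 (0.871). Txnip is a thioredoxin inhibitor whose transcript follows cell glucose, and Acacb makes the malonyl-CoA that restrains fatty acid oxidation. Those most like Kdr were Kti12 (0.890), Prss37 (0.876), Rbm5 (0.875), Kansl1 (0.873) and Zfp119b (0.863), none of which was among the endothelium markers. Over all 17 arrays these 5 correlated with Kdr at 0.587, 0.031, 0.559, 0.339 and 0.568. The 5 genes like Vegfa stood at 0.845 to 0.903 with Vegfa. Both sets were picked for the highest r over the 15 arrays without HGI 9 and HGI 10. A high r over those arrays was therefore set by the choice.

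Of 20 measured genes of the hypoxia-inducible factor pathway, its regulators and targets together, 9 were higher and 11 lower in HGI, with a median of -0.02, and 0 passed in either direction. Epas1, which encodes the hypoxia-inducible factor HIF-2α, averaged -0.26 ± 0.21 (SD, n = 9) for HGI mice and 0.01 ± 0.20 (SD, n = 8) for LGI mice. The difference of -0.26 ± 0.09 (SE) came with an unadjusted p of 0.0112 and an adjusted p of 0.552 in limma. It was -0.26 without HGI 9 and HGI 10 too. Hif1a, which encodes HIF-1α, pointed the other way, by 0.20 ± 0.11, and Bnip3, a hypoxia-induced mitophagy gene, differed by -0.17 ± 0.09, or -0.10 without those 2 arrays.

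Of 12 measured ligands and receptors of the system outside the members, 8 were higher and 4 lower, with a median of 0.02, and 0 passed. Without HGI 9 and HGI 10, 9 were higher and 3 lower, with a median of 0.08. There 2 of the 12 had an unadjusted p under 0.05 in limma, as did 7.79% of all genes. The same count was 3 of the 20 hypoxia genes above. It was 4 of 21 signalling genes and 3 of 13 Notch and tip cell genes, described below. Pgf, placental growth factor, differed by 0.02 ± 0.07 (SE), Nrp2, a VEGFC co-receptor, by 0.08 ± 0.08, and Tie1, the partner receptor of Tie2 and also one of the endothelium markers, by -0.06 ± 0.09. Itgb1, an integrin chain, differed by 0.12 ± 0.06 and Plxnd1, a semaphorin receptor, by 0.15 ± 0.11. Ptprb, the phosphatase that restrains Tie2, differed by -0.27 ± 0.15 with all mice and by -0.08 without HGI 9 and HGI 10, where Pgf differed by -0.01, Nrp2 by 0.16, Tie1 by 0.03 and Plxnd1 by 0.28.

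Downstream of the receptors, 9 of 21 measured signalling genes were higher and 12 lower, with a median of -0.02, and 0 passed. Pik3r1, whose product holds phosphoinositide 3-kinase at receptors, differed by -0.37 ± 0.14 (SE), Grb2, an adaptor of receptor kinases, by 0.26 ± 0.10 and Ptk2, focal adhesion kinase, by 0.14 ± 0.06. Their unadjusted p-values were 0.0156, 0.0160 and 0.0318. Of 13 measured Notch and tip cell genes, which act in sprouting, 9 were higher and 4 lower, with a median of 0.04, and 0 passed. Lama4, a vessel laminin, differed by -0.21 ± 0.08 and Notch1 by -0.15 ± 0.07, while Aplnr, the apelin receptor, differed by 0.17 ± 0.08. For Lama4, as for Kdr, 0 of 9 HGI mice were above the LGI median.

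Of the other cell types, 12 of 12 macrophage markers were higher in HGI, at a median of 0.10, with Gpnmb at 0.69 ± 0.18 (SE), Mpeg1 at 0.39 ± 0.11 and Trem2 at 0.32 ± 0.19, and 0 passed. All 12 were again higher without HGI 9 and HGI 10, at a median of 0.19. In the first scan group, with HGI 9 kept, 6 were higher and 6 lower. In the later one, with HGI 10 kept, 12 were higher and 0 lower. In the first group the macrophage mean was -0.31 in HGI 9 and -0.11 to 0.36 in the other HGI arrays. Among its LGI arrays it ran from -0.25 to 0.04. 7 of 11 mural cell markers were higher and 4 lower, at a median of 0.06, led by the smooth muscle genes Acta2 at 0.47 ± 0.20, Tagln at 0.72 ± 0.38 and then the pericyte gene Rgs5 at 0.20 ± 0.11. The mural mean was 0.36 in HGI 9 and 0.31 in HGI 10 and between -0.39 and -0.12 in the other 15 arrays, and without those 2 Acta2 differed by 0.21, Tagln by 0.11 and Rgs5 by 0.32. Among the 10 adipocyte markers with no saturated spot, whose median was -0.16, Plin1 differed by -0.22 ± 0.10 and Pnpla2 by -0.20 ± 0.10. Without the same 2 arrays Plin1 differed by -0.14. Cfd, the marker with the smallest p, was saturated and is given no difference. Of all 12 adipocyte markers, saturated ones included, 5 were higher and 7 lower in the first scan group, at a median of -0.03. In the later scan group 1 was higher and 11 lower, at a median of -0.23. With the adipocyte mean as a covariate, saturated markers kept or left out, the Kdr difference was -0.27. The part of the macrophage and mural markers in the differences of the members was not tested.

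**Figure D5:**
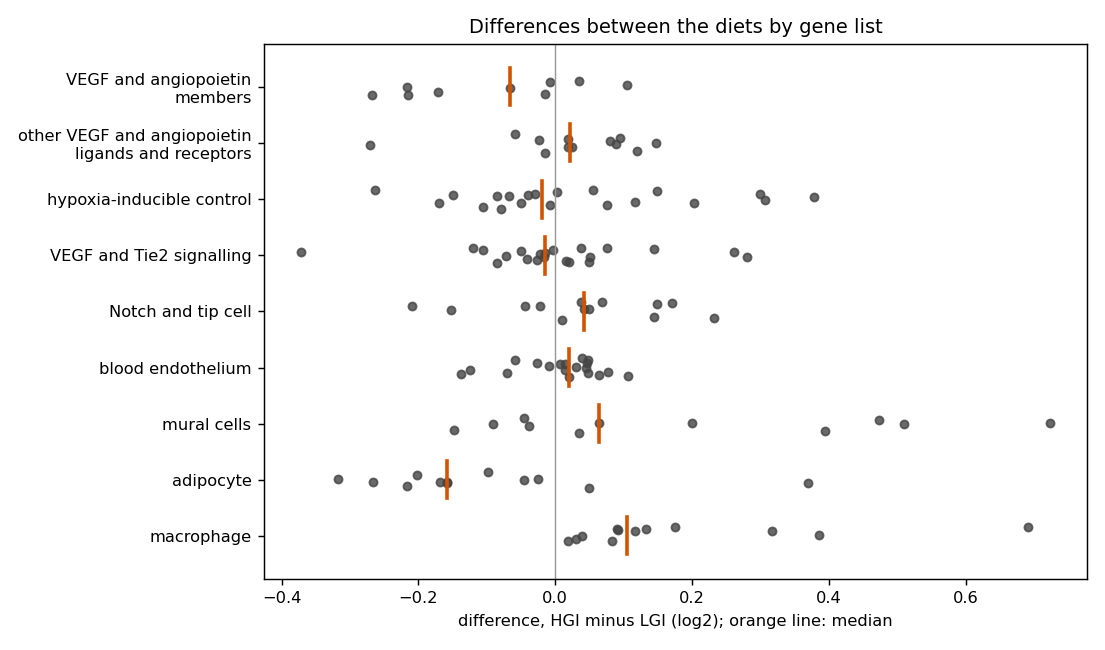
Difference in log2 ratio, HGI minus LGI (horizontal axis), of each measured gene by list, with the median of the list as an orange line. The 9 members are at the top, their median at -0.07. The lists of signalling genes straddle 0, while 12 of 12 macrophage markers lie above it and 10 of 12 adipocyte markers below it, among them Cfd and Fabp4, which were saturated on all 17 arrays.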

How the data were processed

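Deposited scanner files of 17 arrays, 9 HGI and 8 LGI, hold spot intensities per the file headers, written by Agilent Feature Extraction, version 9.1.3.1 in the headers and 9.5.1.1 in the submitters' processing notes. A table of log2 values deposited by the authors, with 19836 probes, was an alternative. Its column medians run from 8.329 to 8.331 and it follows the Cy5 intensities, but its normalization and centring are unknown.

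Mean and background intensities were corrected by normexp (offset 50) and normalized by loess within arrays in limma 3.58.1 (R 4.3.3, data.table, version 1.17.8). Control spots (2256 of 43790) and flagged spots were left out. Tested probes had 8 or more arrays with Cy5 well above background, a gene was represented through its brightest tested probe, and the diets were compared by lmFit and eBayes with no covariate, p adjusted by Benjamini-Hochberg over 18133 genes at 0.05. Fits were tested on simulated data. Correlations used 100000 resamples (Python 3.11.15, numpy 2.4.6, scipy 1.17.1), with pandas 2.3.3 and matplotlib 3.10.9 for tables and plots.

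Named beside the members are the 3 genes of each list with the smallest p, plus Pgf, Nrp2, Tie1, Hif1a, Epas1, Pecam1 and Cdh5, and the 5 genes most like Vegfa and Kdr, clone and model names left out. Members and lists were chosen with earlier results of these data known. Lists also covered fibroblasts, mesothelium, epididymis, red blood cells, sperm and motile cilia. Names came from RefSeq's GRCm38.p6 list: 23374 probes matched by accession, 6733 by symbol and 2919 by a former symbol, and 8148 did not match. Replicate numbers occur in both diets for 7 pairs, whose deviations correlated at -0.38 to 0.26, so they were not treated as pairs.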

Additional observations from a re-analysis of the deposited data

Results flagged for a closer look

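Nrp1 in LGI 4 lay far from the other LGI mice, at -0.3774 against 0.03 for the nearest of them, a gap of 0.590 of the whole range of the group. 18 groups, 9 genes in each diet, were examined in this way, and chance alone sets apart about 1 group in 20.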

How the results depend on the processing

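No member passed an adjusted p of 0.05 under any of the 41 settings tried (40 for Flt4, which the filter for all arrays removes). Kdr, Vegfa, Vegfb and Flt4 lay lower in HGI in each, from -0.32 to -0.19, -0.31 to -0.10, -0.20 to -0.05 and -0.58 to -0.08. Their unadjusted p-values in limma did not stay under 0.05 in each. Kdr stood at 0.0567 with median centring and Flt4 at 0.434 with Cy5 alone. With the mean of all tested probes, Vegfa stood at 0.204 and Vegfb at 0.0922. Angpt2 ran from -0.0050, with the endothelium covariate without HGI 9 and HGI 10, to 0.16; it was 0.0091 with the authors' deposited values, 0.019 with Cy5 alone and 0.053 to 0.15 when 1 array was left out. The causes of the changes below were not tested. Genes past the threshold numbered 0 higher and 0 lower, except 1 lower with Cy5 alone, 1 lower with array weights and 0 to 3 lower when 1 array was left out, the 3 without LGI 7.

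The members with differences near 0 changed sign. Vegfc was -0.023 with the scanner's processed signals, -0.055 with Cy5 alone, -0.13 with the authors' deposited values and -0.029 in the later scan group. Flt1 was 0.028 in the later scan group, and 0.11 there without HGI 10. Nrp1 was 0.012 with median centring, 0.0078 with array weights, 0.046 without HGI 9 and HGI 10, 0.047 without these and LGI 9, 0.093 in the later scan group, 0.13 there without HGI 10 0.023 with the adipocyte covariate and 0.018 with that covariate without saturated markers. Tek was 0.018 with median centring, 0.021 with array weights, 0.14 without HGI 9 and HGI 10, 0.12 without these and LGI 9, 0.12 in the later scan group, 0.28 there without HGI 10 0.076 with the adipocyte covariate and 0.071 with that covariate without saturated markers. Leaving out 1 array at a time gave Vegfc -0.0081 to 0.087, Nrp1 -0.084 to 0.022 and Tek -0.079 to 0.064.

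The ligand median was -0.16 with the authors' values, 0.035 with no filter on dim probes, 0.0085 without HGI 9 and HGI 10, 0.0068 without these and LGI 9, and 0.050 in the first scan group without HGI 9. The receptor median was 0.11 in the later scan group without HGI 10. With the replicate block over the 14 arrays whose number occurs in both diets, 0 genes passed and the receptor median was -0.01. Tek differed by 0.042, and no other member changed sign. All this was the same over these arrays without the block, and 2 of 7 numbers correlated best with their own. Unadjusted p-values in limma with the block were 0.0795 for Vegfa, 0.143 for Vegfb and 0.0511 for Flt4, no longer under 0.05. Without it they were 0.151, 0.186 and 0.0541. Kdr stayed under 0.05, at 0.022 with the block and 0.0116 without it. A slide block was not run, since each slide held 1 array. Flt4 and Angpt1 are limited by signal near background.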

Other observations

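Of the marker lists not described above, 5 of 9 fibroblast and progenitor genes were higher in HGI and 4 lower. Of 5 mesothelium genes 1 was higher and 4 lower, with Lrrn4 at -0.45 ± 0.13 (SE), Upk3b at -0.38 ± 0.13. Of 5 measured epididymis genes 4 were higher and 1 lower, of 2 red blood cell genes 1 and 1, of 4 sperm genes 1 and 3, and of 3 motile cilia genes 1 and 2. All 4 seminal vesicle genes with no saturated spot were higher in HGI with all mice, at a median of 1.35, and 1 was higher and 3 lower without HGI 9 and HGI 10, at a median of -0.04. None of these genes passed the adjusted threshold in limma.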
